A study of Mus musculus with 6 samples.

Results

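The spindle assembly checkpoint was examined through 8 genes chosen by their symbols: the kinase genes Bub1b, Bub1 and Ttk, the core genes Bub3, Mad1l1 and Mad2l1, and the associated genes Zwint and Mad2l1bp. All 8 were present among the 25239 genes counted, and all 8 had counts in each of the 6 libraries. The libraries were made with Smart-seq3 from mouse germinal vesicle (GV) oocytes, in which the nucleus is intact and meiosis is arrested in prophase. Smart-seq3 copies polyadenylated RNA of 1 cell into full-length cDNA with an oligo(dT) primer and a template switch. The oocytes came from female CD-1 mice (an outbred stock) of 4 to 6 weeks and were injected while inside their cumulus-oocyte complexes. The water group received water and the phthalate group a mixture of phthalate metabolites, whose members and dose the labels do not give. Both groups were then held in maturation medium with 10% fetal bovine serum, 200 mIU/mL follicle-stimulating hormone and 50 µg/mL sodium pyruvate, and both were collected at the GV stage. Each group has 3 libraries, numbered 1 to 3.

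The labels title each library as an injected GV oocyte with a replicate number. They name no animal or culture behind a library and do not say whether the libraries of a group are independent. Each group was therefore treated as 1 sample: no p-value is given, and the differences below have no replicate check. The comparison addresses whether the injected mixture changed the messenger RNA of the oocyte. Libraries held between 252267 and 300917 gene counts. The oocyte identity of the libraries was checked with 12 oocyte markers, all detected, whose summed counts ranged from 7962 to 8196 in the water libraries and from 6805 to 8124 in the phthalate libraries. Of 20 cumulus and granulosa markers, 10 were at 0 in all libraries, Amh, Foxl2 and Gja1 among them. The sum of these 20 ranged from 13 to 39 counts in the water libraries and from 10 to 26 in the phthalate libraries, and most of it was Nr5a2. Every within-group pair of libraries differed by more than counting noise on counts halved to read pairs, with a chi-square per degree of freedom from 1.18 to 1.46 for water pairs and from 1.39 to 2.31 for phthalate pairs. The most distant pair was phthalate 1 and phthalate 3.

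As background, the checkpoint delays anaphase until every kinetochore is attached to spindle microtubules. Ttk (also called MPS1) phosphorylates the kinetochore scaffold KNL1, which recruits BUB3 with BUB1 and BUBR1, the product of Bub1b. MAD1, encoded by Mad1l1, then converts MAD2, encoded by Mad2l1, into the form that binds CDC20 together with BUBR1 and BUB3 as the mitotic checkpoint complex. This complex inhibits the anaphase-promoting complex, the ligase that marks securin and cyclin B for destruction. The product of Mad2l1bp, known as p31comet, works with the ATPase TRIP13 to take the complex apart, and the kinetochore protein ZWINT helps recruit the ROD-ZW10-Zwilch complex that delivers MAD1 and MAD2. In mouse oocytes the checkpoint acts in meiosis I, after the stage sampled here.

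Promoter sequence is shown for 5 members, the 3 kinase genes and the genes of the MAD1-MAD2 pair. They were picked because counts of these sets went in opposite ways between phthalate 1 and phthalate 3, as described further on. Bub3 went with the pair and held CCAAT, but its sequence is not shown. With members picked from the counts, the sequences cannot be used to compare motifs with count patterns. Each run is the 150 bases just outside the extent that RefSeq annotates for the gene on GRCm38.p6, at its start, 5′ to 3′ on the strand of the gene, and capitals mark the motif CCAAT or its reverse complement. The positions are chr2:118598052-118598201 (plus strand) for Bub1b, chr2:127831860-127832009 (minus strand) for Bub1, chr9:83834501-83834650 (plus strand) for Ttk, chr5:140321609-140321758 (minus strand) for Mad1l1 and chr6:66535071-66535220 (plus strand) for Mad2l1.
Bub1b: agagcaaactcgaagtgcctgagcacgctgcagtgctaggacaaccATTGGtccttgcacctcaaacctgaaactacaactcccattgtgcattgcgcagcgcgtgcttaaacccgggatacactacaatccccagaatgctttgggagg
Bub1: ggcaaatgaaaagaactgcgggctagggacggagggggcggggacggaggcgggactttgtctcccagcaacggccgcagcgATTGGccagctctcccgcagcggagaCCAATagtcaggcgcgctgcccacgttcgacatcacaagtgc
Ttk: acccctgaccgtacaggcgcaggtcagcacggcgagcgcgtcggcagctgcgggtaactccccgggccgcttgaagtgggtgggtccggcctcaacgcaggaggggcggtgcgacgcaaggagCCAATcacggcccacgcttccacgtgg
Mad1l1: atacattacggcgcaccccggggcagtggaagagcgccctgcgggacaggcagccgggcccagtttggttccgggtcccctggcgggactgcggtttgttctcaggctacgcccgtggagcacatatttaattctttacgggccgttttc
Mad2l1: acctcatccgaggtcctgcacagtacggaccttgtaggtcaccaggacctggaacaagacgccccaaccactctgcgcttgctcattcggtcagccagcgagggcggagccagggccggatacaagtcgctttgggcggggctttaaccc

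The CCAAT box is the binding sequence of the factor NF-Y and is common in promoters of genes expressed late in the cell cycle. Within 250 bases upstream of a start in the RefSeq promoter table, on either strand, CCAAT was found for 5 of the 8 members, namely Bub1, Bub1b, Bub3, Ttk and Zwint. Of all 32851 promoters in the RefSeq table, 33.8% held it. A second motif of cell cycle genes, TTTGAA or TTCGAA, was found for 2 members, Bub1b and Bub3, and in 17.1% of all promoters. Neither motif was in the windows of Mad1l1, Mad2l1 or Mad2l1bp. Bub3, whose counts followed those of Mad1l1 and Mad2l1, held both motifs. A match describes these letters only, and no RNA measured here tests the use of a promoter.

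Bub1b was by far the best represented member. It gave 286, 355 and 283 counts in water 1, 2 and 3 and 293, 347 and 194 in phthalate 1, 2 and 3. The 8 members together took 0.201% of the gene counts of the water libraries summed (95% exact binomial interval 0.192 to 0.211) and 0.188% of the phthalate libraries summed (0.178 to 0.197). These intervals, like all that follow, cover counting error only. Shares of single libraries ran from 0.192% to 0.213% for water and from 0.169% to 0.205% for phthalate, so the groups overlapped, and the lowest share was that of phthalate 3. Bub1b made up 53.7% of the members' counts for water and 54.1% for phthalate. Among libraries that part ran from 41.7% in phthalate 3 to 61.9% in phthalate 1, while the water libraries stayed between 50.4% and 55.4%.

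Levels of different genes were compared as normalized CPM (counts per 1000000, with TMM scaling of library sizes) per kilobase of the longest GENCODE M21 transcript, averaged over the 6 libraries. On this scale Bub1b stood at 284, rank 243 of 12543 genes with a count and a known length. Ttk (76.6) and Bub3 (68.3) came next. Mad1l1 (30.9), Mad2l1 (24.1), Zwint (22.0), Mad2l1bp (17.5) and Bub1 (16.7) followed. In each library Bub1b was above every other member: its lowest value, 206 in phthalate 3, exceeded the highest of any other member, the 95.9 of Bub3 in the same library. The ranges of Ttk (60.8 to 95.6) and Bub3 (35.6 to 95.9) overlapped, as did those of neighbours among the 5 that followed. The places below Bub1b depended on transcript length. With the median length of all transcripts 7 members took another place, and with the median of protein-coding transcripts 4 did, whereas Bub1b was first under all 3 lengths.

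**Figure D1:**
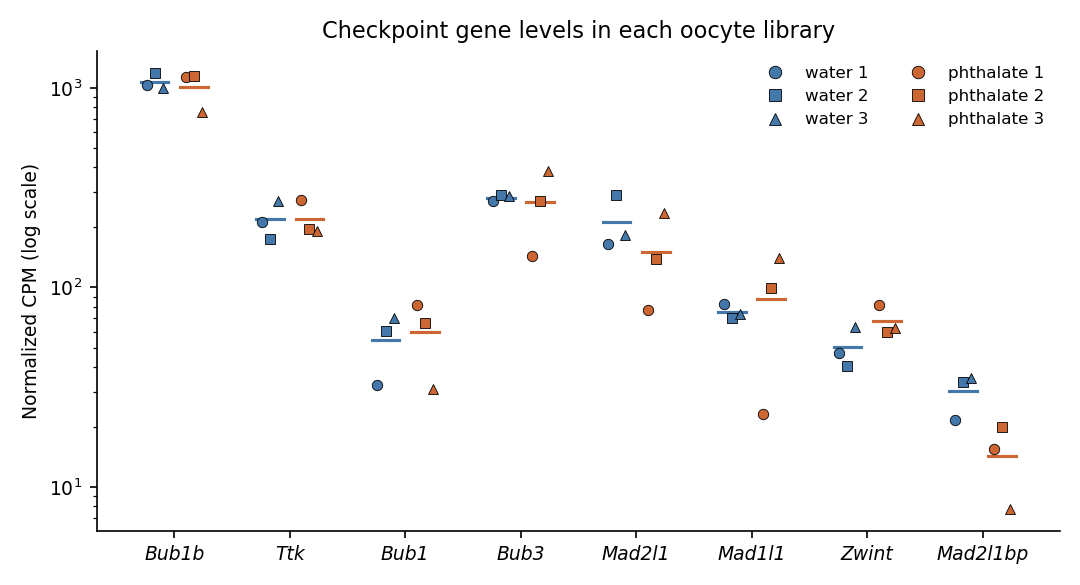
Normalized CPM on a log axis for the 8 genes in each library; blue symbols are water, orange symbols are phthalate, the symbol shape gives the library number and bars are means over the 3 libraries of a group. Bub1b lies between 755 and 1192 in all libraries, and phthalate 1 (orange circle) is the lowest library for Bub3, Mad1l1 and Mad2l1.

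Among the kinase genes, the sums of the groups were close. Bub1b (chr2:118598202-118641592 on GRCm38, as are all positions here) encodes BUBR1, a pseudokinase that is both a part of the checkpoint complex and a stabilizer of kinetochore attachment. Its normalized CPM was 1029, 1192 and 998 in the water libraries and 1132, 1150 and 755 in the phthalate libraries. Phthalate 3 lay below all others and the remaining libraries of the groups overlapped. From sums of 924 and 834 counts the log2 ratio of phthalate over water was -0.08 (95% exact interval -0.21 to 0.06). This is the narrowest interval of the 8 and lies within 1.5-fold of no difference on both sides. Without phthalate 3 the log2 ratio was 0.09.

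Ttk (chr9:83834651-83872390), the kinase at the top of the pathway, had 59, 52 and 77 counts in the water libraries and 71, 59 and 49 in the phthalate libraries. The groups overlapped throughout, with a log2 ratio of 0.00 (-0.30 to 0.30) from sums of 188 and 179. Bub1 (chr2:127800197-127831859), the kinase that marks centromeric histone H2A and binds BUB3, had far fewer counts, with 9, 18 and 20 in the water libraries and 21, 20 and 8 in the phthalate libraries. Each group held 1 low library, water 1 and phthalate 3, and the groups overlapped. The log2 ratio of Bub1 was 0.13 (-0.48 to 0.74), or -0.81 to 0.95 on read pairs, an interval that includes 1.5-fold in both directions.

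The core genes without a kinase fold varied more among the phthalate libraries. Bub3 (chr7:131560367-131571895), a WD-repeat protein that carries BUB1 and BUBR1 to KNL1, had 75, 86 and 81 counts in the water libraries and 37, 82 and 99 in the phthalate libraries. The water libraries were within 1.07-fold of each other in normalized CPM (270, 289 and 286), whereas the phthalate libraries (143, 272 and 385) held both the lowest and the highest value and spanned 2.69-fold. The sums of 242 and 218 gave a log2 ratio of -0.08 (-0.35 to 0.19). Without phthalate 1 it was 0.21 and without phthalate 3 it was -0.41, so its direction rested on which library was included.

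Mad1l1 (chr5:140008689-140321608), the kinetochore receptor of MAD2, likewise had its lowest value in phthalate 1 and its highest in phthalate 3. Its counts were 23, 21 and 21 in the water libraries and 6, 30 and 36 in the phthalate libraries. Phthalate 1 lay below all water libraries and the other 2 phthalate libraries above them, a span of 6.04-fold in normalized CPM against 1.17-fold for water. The log2 ratio of the sums of 65 and 72 was 0.22 (-0.28 to 0.73). It was 0.65 without phthalate 1 and -0.24 without phthalate 3. RefSeq places the predicted genes Gm30492 and Gm16120 over Mad1l1, neither of which is a row of the count table, and the use of strand in counting is not given in the sources used here.

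Mad2l1 (chr6:66535221-66541107), whose product is the inhibitor of CDC20, had 46, 87 and 52 counts in the water libraries and 20, 42 and 61 in the phthalate libraries. Phthalate 1 and phthalate 2 were the lowest libraries, and phthalate 3 lay between water 3 and water 2, so the groups overlapped. The sums of 185 and 123 gave a log2 ratio of -0.52 (-0.86 to -0.18), or 0.699-fold, short of the 1.5-fold used here to call a difference. Even counts were more common than odd ones in the whole table (69.9% of counts from 1 to 20; 26 of 48 counts, or 54.2%, for the members), a pattern that counting both mates of a read pair gives; whether this was done is not stated. On counts halved to read pairs the interval of Mad2l1 widened to -0.99 to -0.02. The ratio passed 1.5-fold without water 1 (-0.66), without water 3 (-0.62) and without phthalate 3 (-0.96), and was -0.21 without water 2, the library with the most Mad2l1 counts.

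Zwint (chr10:72654846-72674964) had 13, 12 and 18 counts in the water libraries and 21, 18 and 16 in the phthalate libraries. The groups overlapped only through water 3, the highest water library at 63.5 normalized CPM, which lay above phthalate 2 (59.7) and phthalate 3 (62.3). Its log2 ratio was 0.43 (-0.17 to 1.04), from sums of 43 and 55, and 0.63 without water 3.

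Mad2l1bp (chr17:46147385-46153551) was the single member past 1.5-fold and the single member whose libraries did not overlap between the groups. It gave 6, 10 and 10 counts in the water libraries and 4, 6 and 2 in the phthalate libraries, or 21.6, 33.6 and 35.3 against 15.5, 19.9 and 7.78 in normalized CPM. The highest phthalate library lay just below the lowest water library, a gap of less than 1 count. The sums were 26 counts (95% exact Poisson interval 17.0 to 38.1) and 12 counts (6.2 to 21.0), with a log2 ratio of -1.04 (-2.16 to -0.01). On read pairs the interval was -2.73 to 0.45. Leaving out 1 library gave ratios from -1.37 to -0.76. With a mean of 6.33 counts Mad2l1bp was the 1 member that failed the low-count filter, and of the 1185 genes that averaged from 5 to 8 counts, 42.4% were past 1.5-fold and 11.6% did not overlap. Its partner Trip13, looked up after these values were seen, was at 0 in all 6 libraries, which allows up to 3 of 1676410 counts, or 1.79 CPM.

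**Figure D2:**
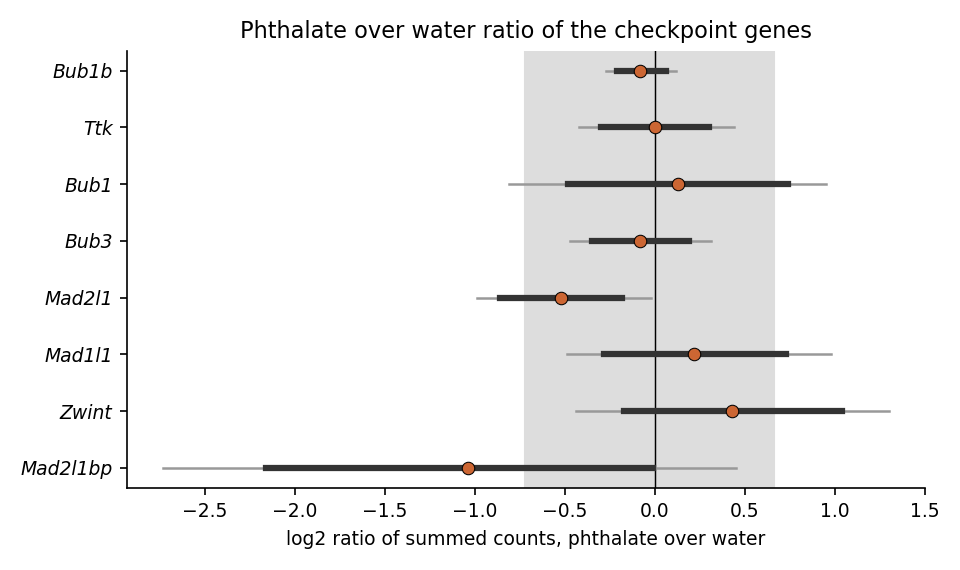
Log2 ratio of summed counts, phthalate over water, for each gene (points) with the 95% exact counting interval on counts (thick lines) and on read pairs (thin lines); the grey band holds the middle 90% of the genes passing the filter, from -0.72 to 0.66. Mad2l1bp (-1.04) lies outside the band with the widest interval, and Bub1b (-0.08) has the narrowest.

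Over the 8 members, 1 was past 1.5-fold, Mad2l1bp, which failed the filter. None of the 7 filtered members was past it, beside 15.1% of the 4644 genes that passed the filter. Of the 12804 genes with a count, 39.7% were past it. With all libraries the members' count was thus not above the background, and it ranged from 1 to 3 with 1 library left out. For libraries that do not overlap between the groups the count was 0 of the 7 members that passed the filter, beside 10.1% of the filtered genes, and Mad2l1bp lay outside that set. The median log2 ratio of the members was -0.037, and that of the filtered genes 0.0089. Scaling by ERCC spike-in RNA in place of gene counts moved the median of the filtered genes by 0.12 and placed 6 members above 0 and 2 below, against 4 and 4 in the main scaling. The ratios of Bub1b, Bub3 and Ttk, all near 0, changed sign among the scalings and carry no direction.

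**Figure D3:**
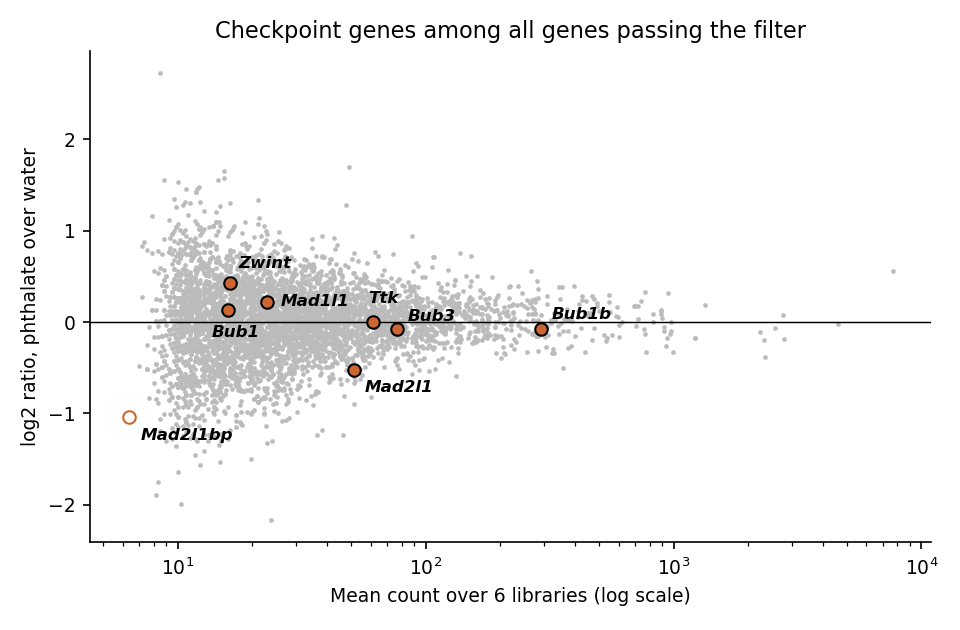
Log2 ratio of phthalate over water against mean count (log axis) for the 4644 filtered genes (grey) and the 8 members (orange; Mad2l1bp, open, failed the filter). The 7 filtered members lie within the cloud of grey points, with Mad2l1 (-0.52) near its lower edge.

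The balance between members of different roles varied widely among the phthalate libraries. The split by role was made after the values were seen and has no test. In the water libraries Bub3, Mad1l1 and Mad2l1 together gave 40.7 (95% exact interval 33.3 to 49.5), 45.6 (38.3 to 54.2) and 40.5 (33.4 to 49) counts per 100 counts of the kinase genes Bub1, Bub1b and Ttk. In phthalate 1, 2 and 3 they gave 16.4 (12.3 to 21.4), 36.2 (29.9 to 43.6) and 78.1 (64.4 to 94.5). Phthalate 1 therefore lay below and phthalate 3 above every water library with intervals that did not meet, and phthalate 2 lay below them with an interval that overlapped all 3. As the split followed these values, the separation describes the counts and is no check of a difference. The intervals also leave out the spread between libraries beyond counting error. The intervals of the summed groups overlapped, with 42.5 (38.1 to 47.2) for water and 38.9 (34.6 to 43.6) for phthalate. The underlying counts were 63 against 385 in phthalate 1 and 196 against 251 in phthalate 3. Bub1b alone gave 293 of the 385 and 194 of the 251. Both sides contributed: phthalate 3 was the lowest library of all for Bub1b and Bub1, and the highest for Bub3 and Mad1l1. For the other 2 genes the extreme was water 2. Ttk had 175 normalized CPM there against 191 in phthalate 3, and Mad2l1 had 292 against 237.

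**Figure D4:**
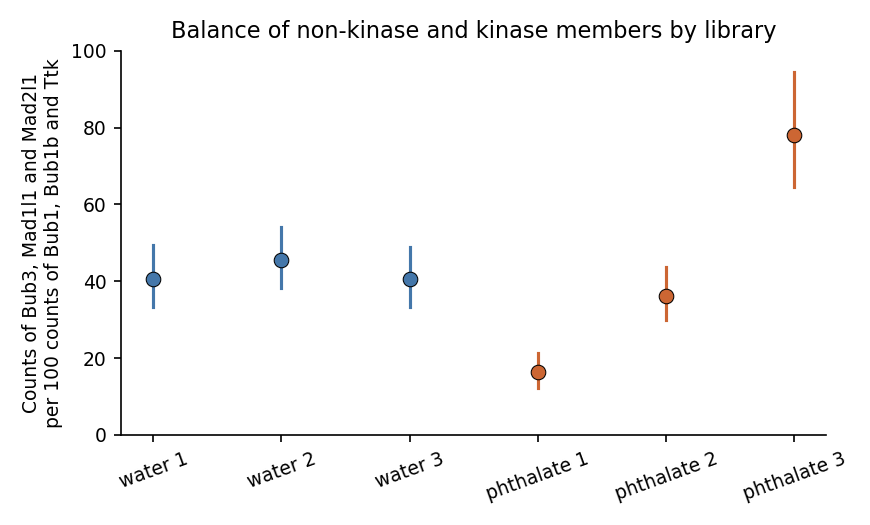
Counts of Bub3, Mad1l1 and Mad2l1 per 100 counts of Bub1, Bub1b and Ttk in each library, with 95% exact counting intervals (vertical lines); blue is water and orange is phthalate. The water libraries lie between 40.5 and 45.6, phthalate 1 (16.4) lies below them, phthalate 3 (78.1) lies above, and the interval of phthalate 2 (36.2) overlaps theirs.

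A spread of this kind was not restricted to the checkpoint. Phthalate libraries were more than 2-fold apart (highest over lowest normalized CPM) for 5 of the 8 members, namely Mad1l1, Mad2l1, Bub3, Bub1 and Mad2l1bp, and for 33.2% of the filtered genes. Mad2l1bp failed the filter and has no place in that share. Water libraries were that far apart for 1 member, Bub1, and for 27.2% of the filtered genes. In the 2784 genes that averaged at least 20 counts the numbers were 586 for phthalate and 383 for water, and 3 of the 5 members at that abundance were among the former and 0 among the latter. Phthalate 1 and 3, the extremes for Mad1l1, Mad2l1, Bub3 and Bub1, were also the pair with the largest chi-square over the filtered genes (2.31 per degree of freedom). For Mad2l1bp the extremes were phthalate 2 and 3. ERCC counts were 443, 498 and 292 in phthalate 1, 2 and 3 and 753, 338 and 313 in water 1, 2 and 3. Cumulus and granulosa marker sums were 19, 26 and 10 in the phthalate libraries and 39, 23 and 13 in the water libraries. The part of these measures in the spread was not tested.

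The nearest profiles to that of Mad2l1, the member with the largest ratio among those averaging at least 20 counts, were those of Lamtor3, Ubb-ps and Scyl2. The root-mean-square difference of log2 normalized CPM over the 6 libraries, after centring each gene, was 0.157, 0.168 and 0.175. In all, 28 of 2784 genes lay within 0.3. Lamtor3, which encodes a scaffold of the lysosomal Ragulator complex, had 108, 134 and 106 normalized CPM in the water libraries and 42.5, 72.9 and 121 in the phthalate libraries, with phthalate 1 the lowest as for Mad2l1.

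The kinetochore proteins on which the checkpoint assembles were covered by 36 genes, all with counts, of which 23 passed the filter. Their median log2 ratio was 0.094, with 17 genes above 0 and 6 below, beside 2377 above and 2267 below among all filtered genes. That median ranged from 0.058 to 0.294 with 1 library left out. It was 0.209 with ERCC totals, which moved the median of all filtered genes by 0.12. Past 1.5-fold there was 1 gene above, Mis12, and 0 below, or 4.35% of the list beside 15.1% of all filtered genes. Mis12, a subunit of the complex that anchors the outer kinetochore and named after its values were seen, had 7, 16 and 12 counts in the water libraries and 16, 16 and 21 in the phthalate libraries, a log2 ratio of 0.67 (0.03 to 1.33). Intervals of list genes, here and below, are on counts. Read-pair intervals, which were wider for the members, were not computed for the lists. Of the 23, 0 had groups that did not overlap, beside 10.1% of all filtered genes. The 2 best represented genes were Cenpf and Cenpe, large coiled-coil proteins of the outer kinetochore, of which CENP-E is a motor that binds BUBR1. Cenpf had 226, 334 and 211 counts against 225, 364 and 192, a log2 ratio of 0.09 (-0.05 to 0.24). Cenpe had 103, 130 and 105 counts against 92, 121 and 67, a log2 ratio of -0.20 (-0.43 to 0.03). Phthalate 3 was the lowest phthalate library for both, as for Bub1b, but the highest for others of the list, Mis12 among them. For Cenpf and Cenpe the groups overlapped.

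Genes that act with, below or against the checkpoint formed a list of 27, of which 25 had counts and 20 passed the filter. Their median log2 ratio was 0.038, with 11 above 0 and 9 below. None was past 1.5-fold upward and 2 were past it downward, Nup153 and Sgo1, which is 10.0% of the list beside 15.1% of all filtered genes. Nup153, a nuclear pore protein that binds MAD1, had 20, 34 and 31 counts in the water libraries and 21, 18 and 10 in the phthalate libraries, a log2 ratio of -0.72 (-1.26 to -0.20) with overlap through water 1. Sgo1, the shugoshin that protects centromeric cohesin and is recruited by the BUB1 mark, was named after its values were seen. It had 11, 16 and 18 counts against 8, 8 and 2, a log2 ratio of -1.25 (-2.13 to -0.43), and its groups did not overlap. Of the 20, 2 had groups without overlap, Sgo1 and Haspin, or 10.0% beside 10.1% of all filtered genes. Haspin, the kinase that marks centromeric histone H3, was also named after its values were seen, with 34, 38 and 35 counts against 29, 27 and 30 and a log2 ratio of -0.24 (-0.67 to 0.18). Cdc20, given outside the naming rule because it is the target of the checkpoint, had 23, 17 and 21 counts against 19, 27 and 20, a log2 ratio of 0.19 (-0.34 to 0.71) with overlap between the groups. Ccnb1, which encodes cyclin B1 and was the best represented gene of the list, had a log2 ratio of -0.01 (-0.14 to 0.13) from 898 and 850 counts. Dynll1, a dynein light chain and the next in counts, had 0.02 (-0.20 to 0.24) from 336 and 324.

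**Figure D5:**
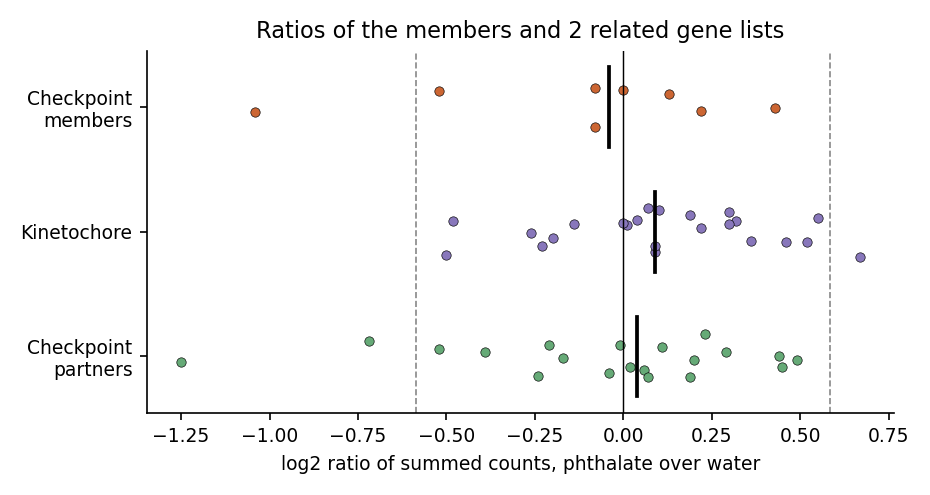
Log2 ratios of phthalate over water for the 8 members, the 23 filtered kinetochore genes and the 20 filtered checkpoint partners (1 point per gene, shifted vertically for display; black bars are medians and dashed lines mark 1.5-fold). Medians lie at -0.037, 0.094 and 0.038, and 4 points fall outside the dashed lines: Mad2l1bp, Mis12, Nup153 and Sgo1.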

How the data were processed

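The data are 3 water and 3 phthalate Smart-seq3 libraries of GV oocytes. The authors deposited raw whole-number counts per gene symbol with 92 ERCC rows. Per the submitters' processing notes, cutadapt, Trimmomatic, HISAT2, DESeq2 and the build mm10 were used; roles, counter, strand and molecular identifiers are not given in the sources used here.

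ERCC rows stayed out of totals. Counts were summed per group, scaled by TMM (edgeR 4.0.16, R 4.3.3) and given as log2 ratios; a sum of 0 was set to 3 counts. Intervals are exact 95% intervals of counting error. The low-count filter was filterByExpr (minimum count 10, total 15), and 1.5-fold counted as called. The ratio was tested on simulated Poisson counts without spread between libraries or double counting of mates, so that test covers the calculation only. Promoters and positions came from RefSeq GRCm38.p6 and transcript lengths from GENCODE M21, on the same build as mm10; both tables held all 8 members.

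The members and lists were chosen with earlier results of these data known. Named genes are the 8 members, the 2 genes of each list with the largest mean count, list genes past 1.5-fold with a mean count of at least 20, and the 3 nearest profiles; others are marked where named. Alternatives were library totals, DESeq2 1.42.0 size factors, ERCC totals, means of CPM, other filters, 2-fold and each library left out; transcript lengths of coding models, read-pair intervals, the split by role, the spread within groups and the low-count background were chosen after seeing the data.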

Additional observations from a re-analysis of the deposited data

How the results depend on the processing

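No paired analysis was possible because the labels tie no library of one group to a library of the other, and with each group counted once the values come from no test. Of 93 member ratios under the alternatives, 4 left the counting interval of the main value, all without a phthalate library: Mad2l1 at -0.96, Bub1b at 0.09 and Bub3 at -0.41 without phthalate 3, and Bub3 at 0.21 without phthalate 1; the cause was not tested. Leaving out 1 library gave log2 ratios from -0.96 to -0.21 for Mad2l1, -0.24 to 0.65 for Mad1l1, -0.12 to 0.42 for Bub1, -0.18 to 0.09 for Bub1b, -0.41 to 0.21 for Bub3, -0.18 to 0.18 for Ttk, -1.37 to -0.76 for Mad2l1bp and 0.29 to 0.63 for Zwint. It gave medians from -0.136 to 0.057 for the members, 0.058 to 0.294 for the kinetochore list and -0.130 to 0.108 for the partner list, and differences in the members' share of counts, phthalate minus water, from -0.0234 to -0.00458 percentage points (-0.0138 with all). The number of members past 1.5-fold ranged from 1 to 3; it was 2 without water 1 and without phthalate 3 (Mad2l1bp and Mad2l1), 2 without phthalate 1 (Mad2l1bp and Mad1l1) and 3 without water 3 (Mad2l1bp, Mad2l1 and Zwint). With a mean count of at least 20 it was 0, since Mad2l1bp is then not included, and with 2-fold it was 1. ERCC totals moved the kinetochore median to 0.209. Ranks by level per length changed for 7 members with the median of all transcripts and for 4 with protein-coding ones. With 6.33 to 293 counts per library on average, depth limits Mad2l1bp, Bub1 and Zwint most.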

Other observations

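Several kinetochore and partner genes below the low-count filter had few counts, and their values were picked out after they were seen. Others of these lists below the filter were also past 1.5-fold, in both directions, and are not described. Knl1, the scaffold that recruits the BUB proteins, had 8, 1 and 10 counts in the water libraries and 16, 19 and 5 in the phthalate libraries, a log2 ratio of 1.15 (95% exact interval 0.32 to 2.02) with overlap between the groups. Aurkb, the catalytic subunit of the chromosomal passenger complex, had 4, 8 and 13 counts against 4, 0 and 4, a log2 ratio of -1.57 (-2.93 to -0.38), also with overlap. Aurkc, the paralogue of Aurkb in germ cells, passed the filter, with 47, 58 and 66 counts against 48, 64 and 75 and a log2 ratio of 0.20 (-0.11 to 0.51). Ppp1cb, a catalytic subunit of protein phosphatase 1, had 6, 8 and 7 counts against 2, 2 and 4, a log2 ratio of -1.32 (-2.70 to -0.09) with no overlap. Over every gene with a count, 39.7% were past 1.5-fold, as Knl1, Aurkb and Ppp1cb were. Groups did not overlap for 11.6% of the genes that averaged from 5 to 8 counts and for 10.1% of the filtered genes. Ppp1cb averaged 4.83 counts.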
